A study of Glycine max with 12 samples.

Results

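In soybean roots holding the arbuscular mycorrhizal fungus Glomus aggregatum at low colonization, 100 genes stood above their level in every library of the other root groups, while roots with Rhizophagus irregularis and roots with Glomus aggregatum at high colonization stayed near uncolonized roots. These genes were selected from FPKM, the fragments of a gene scaled to its transcript length and to the size of the library, with a gene missing from a library set to 0. A gene had to reach 2 FPKM in each of the 3 low-colonization libraries, and its mean in each of the other 2 fungal groups had to lie between 0.67 and 1.5 times the uncolonized mean. The 19535 genes of 49551 listed that met both conditions were ranked by a ratio, the lowest low-colonization FPKM divided by the highest FPKM of the other 9 libraries plus 0.1, and the 100 with the highest ratio were kept. Every library entered that choice, so the heights of the 100 genes and their differences between groups are a description of what was selected and carry no test of their own.

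The 12 libraries came from total root RNA of Glycine max, 3 to a group. NM roots had no fungus, Ri roots held Rhizophagus irregularis, Ga-H roots held Glomus aggregatum with high colonization, and Ga-L roots held the same fungus with low colonization. The labels give no cultivar, mutation, plant age, phosphate supply or measured colonization, and they do not say what set the Ga-L inoculum apart from the Ga-H inoculum. They also do not tie libraries to plants or pots, so every p-value measures only the spread between these libraries, which may be technical.

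Arbuscular mycorrhizal fungi grow into the root cortex and form branched arbuscules inside cortical cells, where the fungus releases phosphate and other minerals and takes up lipids and sugars from the plant. The plant reads fungal signals through a symbiosis signalling pathway that legumes share with root nodulation, and it restricts colonization when phosphate is plentiful. The extent of colonization is commonly scored as the share of root length that holds fungal structures. Transcripts of a whole root therefore mix cells that hold the fungus with many that do not. In such bulk samples, more cells of one type and more RNA per cell cannot be told apart.

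No file used here pairs the gene IDs with names. The 59048 rows of the RefSeq table for assembly Glycine_max_v4.0 matched 0 of the IDs, so no function, pathway or cell type is given for any of the 100 genes, root markers could not be looked up, and no promoter or protein is shown. IDs are printed as deposited. The digits before the G give the chromosome, and the digits after it rise along the chromosome, by 100 from one gene to the next in most places.

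Library totals lay between 10182200 and 11054762 expected counts, so depth was nearly level. One library stood apart: Ri 1 differed from the other Ri libraries by a median of 0.35 on the log2 scale, against 0.17 to 0.29 for the other 11 libraries and their own groups. Counts of calls in comparisons with Ri are given with and without it, while fold changes of single genes against Ri include it.

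The 100 genes were mostly raised by less than 2-fold. Mean Ga-L FPKM divided by mean NM FPKM had a median of 1.75, with quartiles of 1.58 and 2.07 and a range of 1.26 to 4.18. It was 1.5 or more in 82 genes, 2 or more in 31 and 3 or more in 3. Separation from the other libraries was narrower still. The ratio was 2.52 for the first gene, 1.23 at the median and 1.12 at rank 100, with 5 genes at 1.5 or more, 2 at 2 or more and 39 under 1.2. The list has no natural end, because 345 genes in all had a ratio above 1.

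**Figure D1:**
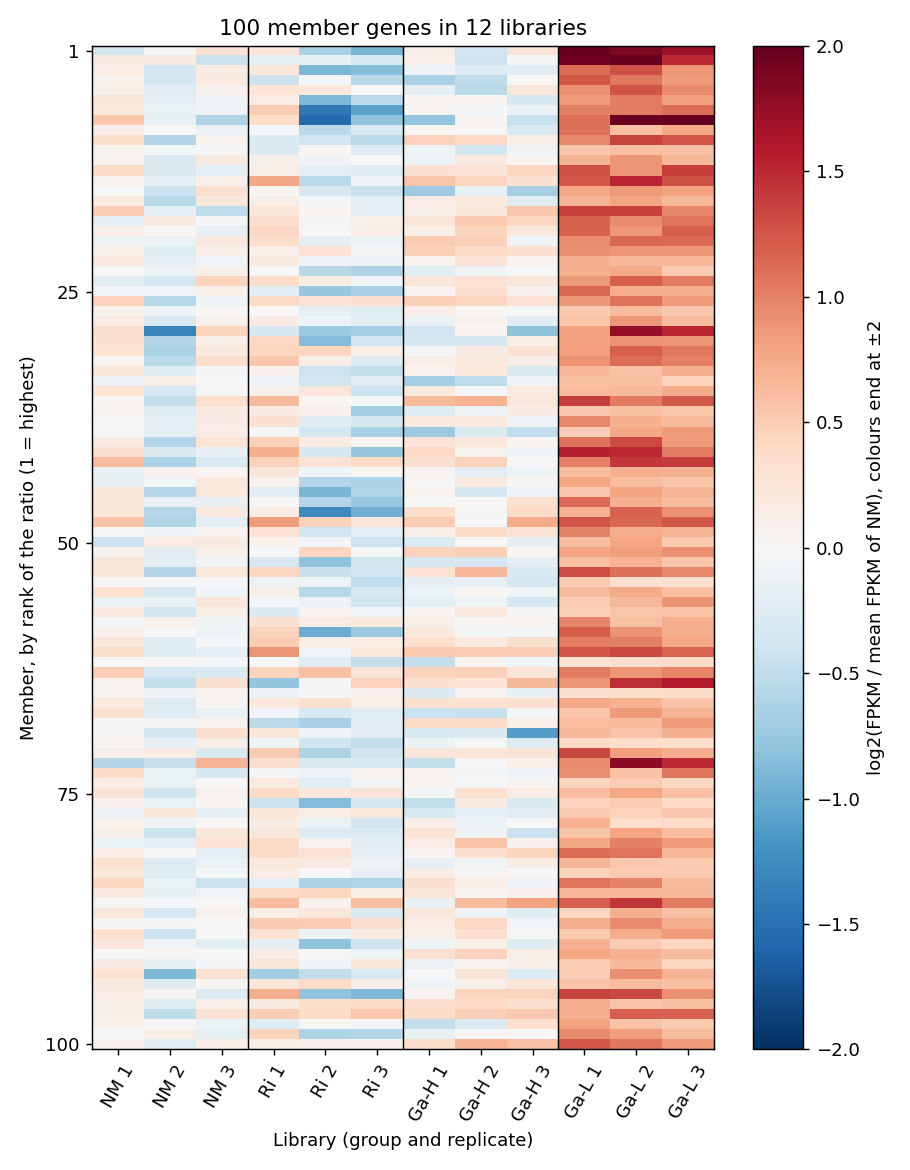
Each row is 1 of the 100 genes, ordered by the ratio, and each column 1 library. Colour gives log2 of FPKM over the mean FPKM of NM, and colours end at 2 in either direction. The 3 Ga-L columns are red in all rows, while Ri 1 is redder than Ri 2 and Ri 3 in many rows and NM 2 is bluer than NM 1 and NM 3.

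Most of the genes were moderately abundant in uncolonized roots. Mean NM FPKM had a median of 12.1 and ran from 1.29 to 553, against a median of 9.65 over the 19535 genes that met the floor and the window. It was under 5 in 20 genes, from 5 to 50 in 69 and 50 or more in 11. Their median length was 1590 bases, against 1795 in those 19535 genes, and 61 had a single listed transcript, against 56.7%. The median expected count of the genes over all libraries was 232, and the lowest in any library was 7.03.

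The widest separations belonged to a pair of weakly expressed genes. Glyma.10G119300.Wm82.a2.v1 measured 1.08, 1.39 and 1.71 FPKM in NM 1, 2 and 3, 1.67, 0.89 and 0.74 in Ri, 1.51, 1.07 and 1.67 in Ga-H, and 5.56, 5.07 and 4.56 in Ga-L. Its highest value outside Ga-L was thus well under its lowest Ga-L value, and its Ga-L mean of 5.06 ± 0.50 (SD, n = 3) was 3.63 times the NM mean. Glyma.11G243200.Wm82.a2.v1 stayed between 0.96 and 1.46 FPKM in the 9 other libraries and reached 4.99, 7.53 and 3.64 in Ga-L. Its Ga-L libraries varied most of all 100 genes, with a coefficient of variation of 36.7%, and even the lowest of them was far above the other groups. Its mean was 4.18 times the NM mean, the largest fold of the 100, and its log2 fold changes were 2.10 ± 0.30 (SE) against NM, 2.32 ± 0.31 against Ri and 2.23 ± 0.31 against Ga-H, with edgeR adjusted p of 0.000718, 0.00667 and 0.0300. For the gene on chromosome 10 the same log2 fold changes were 1.90 ± 0.30, 2.27 ± 0.31 and 1.91 ± 0.30. At rank 8, Glyma.03G127800.Wm82.a2.v1 was low as well and measured 3.08, 1.88 and 1.39 FPKM in NM, 2.72, 0.72 and 1.21 in Ri, 1.22, 2.17 and 1.55 in Ga-H, and 4.49, 8.32 and 8.93 in Ga-L. Its groups did not overlap, but Ga-L 1 was closer to NM 1 than to Ga-L 2, and its lowest library held 7.03 expected counts.

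Abundant transcripts were also among those with the widest separation. Glyma.06G312600.Wm82.a2.v1, at rank 3 by ratio, measured 78.15, 55.37 and 78.95 FPKM in NM, 82.46, 37.59 and 39.33 in Ri, 66.86, 58.44 and 61.33 in Ga-H, and 153.9, 172.7 and 130.5 in Ga-L. Ri 1 was more than double Ri 2 and Ri 3 here and set the highest value outside Ga-L. Glyma.16G060800.Wm82.a2.v1, at rank 4, measured 263.6, 198.8 and 286 FPKM in NM, 188.2, 246.1 and 170.3 in Ri, 159.8, 175 and 253.6 in Ga-H, and 589, 519.1 and 448.8 in Ga-L. The other 3 groups overlapped one another, and each Ga-L library was above all of them. Log2 fold changes of this gene were 1.10 ± 0.22 (SE) against NM, 1.43 ± 0.23 against Ri and 1.48 ± 0.23 against Ga-H, with edgeR adjusted p of 0.00758, 0.0106 and 0.0305.

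The highest Ga-L levels of all, which FPKM makes comparable between genes because it is divided by length, belonged to a pair of short transcripts of 692 and 660 bases. Glyma.15G228300.Wm82.a2.v1 measured 689.4, 219.8 and 750 FPKM in NM, 441.2, 330.5 and 345.9 in Ri, 423.3, 567 and 317.9 in Ga-H, and 968.3, 1861 and 1576 in Ga-L. NM 2 was far below NM 1 and NM 3, Ga-L 1 far below Ga-L 2 and Ga-L 3, and the log2 fold change of Ga-L over NM was 1.46 ± 0.42 (edgeR adjusted p = 0.0414). That call was lost without NM 1, NM 2, Ri 3, Ga-H 1, Ga-H 2, Ga-L 2 or Ga-L 3 (adjusted p of 0.05 to 0.149), without the low-count filter (0.051), with limma unfiltered (0.068), with the replicate number as a block (0.07) and in a fit of NM and Ga-L alone (0.0665). Glyma.11G132800.Wm82.a2.v1 measured 566.9, 391.1 and 667.1 FPKM in NM, 316, 548.1 and 742.9 in Ri, 671.5, 653.9 and 845.8 in Ga-H, and 999, 1501 and 1625 in Ga-L. It passed the edgeR threshold against NM (adjusted p = 0.0130) and Ri (0.0297), and had an adjusted p of 0.119 against Ga-H. Glyma.15G105100.Wm82.a2.v1, next by level after Glyma.16G060800.Wm82.a2.v1, measured 199.8, 126.2 and 175.1 FPKM in NM, 217.1, 194.3 and 200.1 in Ri, 164.7, 208.3 and 185 in Ga-H, and 256.2, 285.8 and 251.7 in Ga-L. Its Ga-L mean was 1.58 times the NM mean and 1.30 times the Ri mean, and it passed the threshold against NM alone (edgeR adjusted p = 0.0185, against 0.162 for Ri and 0.105 for Ga-H). The calls against NM of the genes Glyma.11G132800.Wm82.a2.v1 and Glyma.15G105100.Wm82.a2.v1 were lost without NM 2 or Ga-L 2, and that of the former also without Ga-L 3 or with limma unfiltered.

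The rest of the 12 with the highest ratio were less abundant, with Ga-L means of 1.49 to 2.29 times NM. Glyma.20G138600.Wm82.a2.v1 measured 4.99, 3.95 and 4.91 FPKM in NM, 5.57, 5.36 and 4.57 in Ri, 4.06, 3.17 and 5.47 in Ga-H, and 8.67, 11.07 and 8.86 in Ga-L. Glyma.16G131600.Wm82.a2.v1 had 5.05, 3.95 and 5.46 FPKM in NM, 5.18, 4.6 and 4.77 in Ri, 4.47, 5.48 and 5.02 in Ga-H, and 7.72, 8.89 and 7.62 in Ga-L. In both genes NM, Ri and Ga-H overlapped, and all 3 comparisons of Ga-L passed the threshold, with edgeR adjusted p up to 0.0321 in the former and up to 0.0422 in the latter. Glyma.20G162400.Wm82.a2.v1 was raised by the least of the 12 but varied little within groups: NM measured 15.46, 14.19 and 14.57 FPKM, Ri 12.22, 15.02 and 12.38, Ga-H 13.73, 11.48 and 13.97, and Ga-L 21.35, 22.32 and 22.07. Against NM this was 0.53 ± 0.12 on the log2 scale (SE, edgeR adjusted p = 0.0129), with 0.0615 without NM 2 and 0.0523 without Ga-L 3.

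Glyma.06G069000.Wm82.a2.v1 had the opposite character, a large difference with a large spread. It measured 55.41, 43.55 and 44.29 FPKM in NM, 67.83, 17.78 and 22.71 in Ri, 49.75, 46.96 and 43.81 in Ga-H, and 96.28, 98.04 and 103.3 in Ga-L. The Ga-L libraries lay close together at 2.08 times the NM mean, and Ri 1 was 2.99 times the next Ri library. The gene passed none of the 3 tests, with edgeR adjusted p of 0.0844 against NM, 0.0556 against Ri and 0.144 against Ga-H. Without Ri 1 the adjusted p against NM was 4.71e-05 at nearly the same log2 fold change, 1.10, and it was 0.0346 without Ri 2, 0.0366 by DESeq2 and 0.000759 in a fit of NM and Ga-L alone. It was the single named gene of the 23 that did not pass the comparison with NM.

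**Figure D2:**
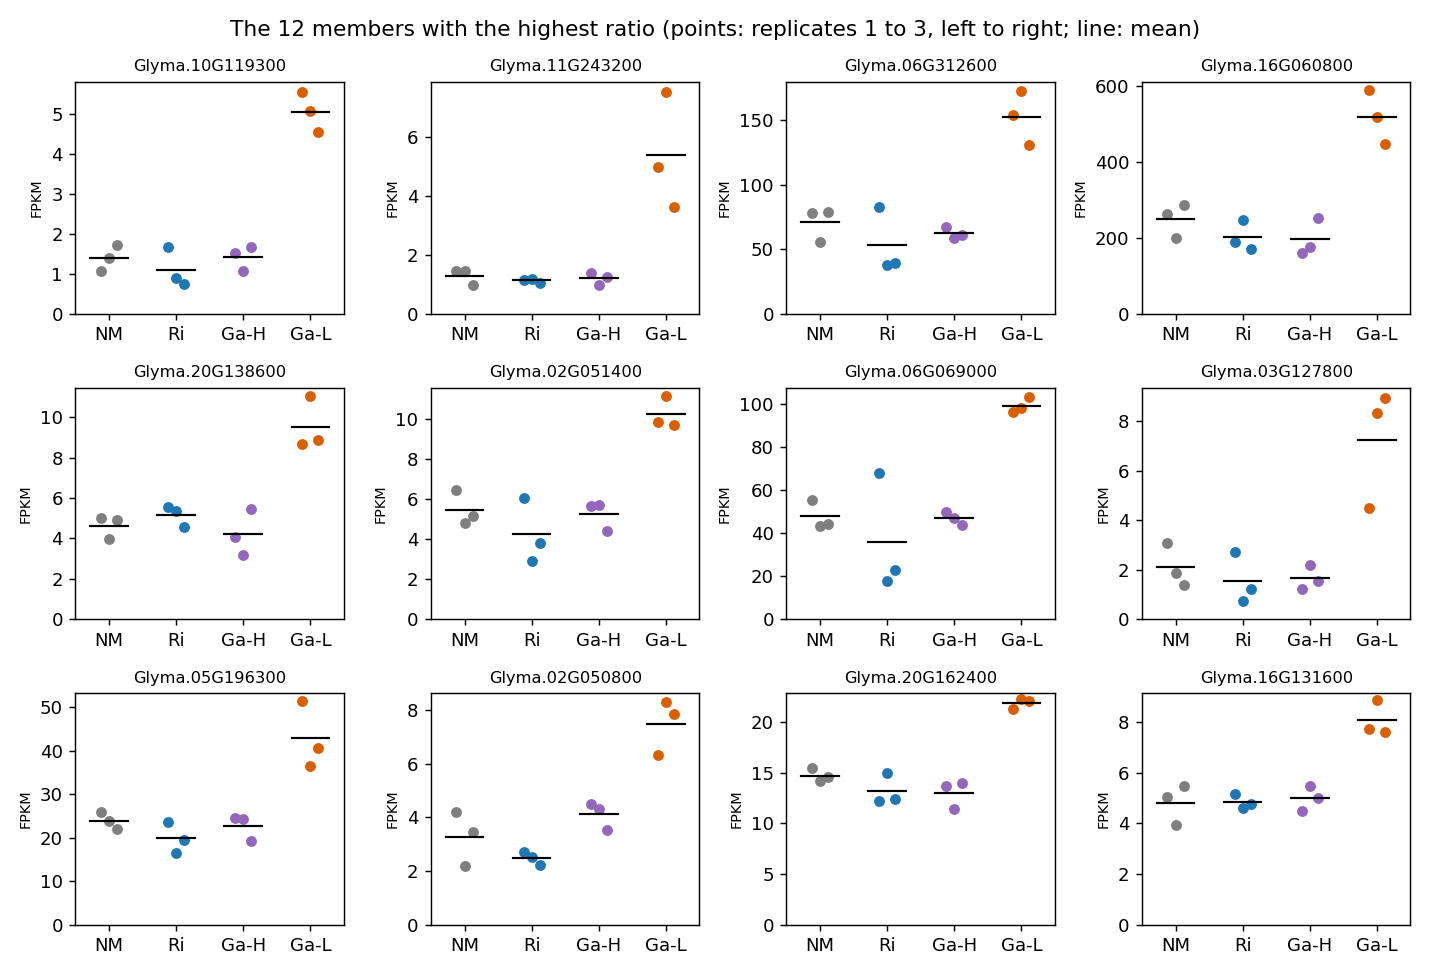
FPKM of the 12 genes with the highest ratio, 1 panel per gene, with replicates 1 to 3 of each group as points from left to right and the group mean as a line. Each axis starts at 0. All Ga-L points lie above all other points in each panel, and Ri 1 is the highest Ri point in 9 panels.

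The coefficient of variation within Ga-L had a median of 9.43% over the 100 genes and a range of 0.888% to 36.7%. The ratio rests on the lowest Ga-L value, so the choice favours a small spread. No value over all genes is given beside it. The steadiest was Glyma.06G126500.Wm82.a2.v1, which measured 7.83, 6.18 and 6.59 FPKM in NM, 8.93, 9.27 and 7.52 in Ri, 8.08, 7.03 and 7.31 in Ga-H, and 10.84, 10.91 and 10.72 in Ga-L. It passed against NM (log2 fold change 0.71 ± 0.12, edgeR adjusted p = 0.00197) and Ga-H (0.60 ± 0.12, 0.0461), and had an adjusted p of 0.0703 against Ri. Glyma.15G112900.Wm82.a2.v1 measured 17.73, 13.9 and 17.78 FPKM in NM, 17.58, 20.03 and 15.97 in Ri, 22.94, 21.55 and 20.29 in Ga-H, and 31.12, 30.4 and 30.42 in Ga-L. Its Ga-H libraries were the highest of the other 3 groups, at 21.6 ± 1.33 (SD, n = 3) against 16.5 ± 2.23 in NM. Glyma.15G047600.Wm82.a2.v1 measured 10.83, 9.6 and 10.93 FPKM in NM, 9.66, 10.3 and 11.06 in Ri, 8.67, 11.01 and 9.44 in Ga-H, and 13.12, 13.32 and 13.54 in Ga-L. This was a difference of 1.27-fold over NM, and edgeR adjusted p was 0.0231 against NM, 0.0409 against Ri and 0.0417 against Ga-H. The call against NM was lost without NM 1, NM 2, Ga-L 2 or Ga-L 3 (adjusted p of 0.0504, 0.105, 0.079 and 0.0841) and with each limma setting (0.0602 to 0.0674).

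At the end of the list the choice between inside and outside turned on small differences. The last genes inside were Glyma.13G253700.Wm82.a2.v1, with a ratio of 1.13, 10.89, 10.07 and 8.78 FPKM in Ga-L and a highest other value of 7.69 in Ri 1, and Glyma.05G196700.Wm82.a2.v1, with a ratio of 1.12, 13, 11.53 and 10.1 FPKM in Ga-L and a highest other value of 8.89 in Ga-H 2. The first outside were Glyma.17G057700.Wm82.a2.v1, with a ratio of 1.12, 13.43, 13.6 and 15.48 FPKM in Ga-L and a highest other value of 11.86 in Ri 2, and Glyma.20G031300.Wm82.a2.v1, with a ratio of 1.12, 45.13, 47.66 and 45.6 FPKM in Ga-L and a highest other value of 40.18 in NM 1.

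The genes were also counted on the deposited expected counts. With edgeR's quasi-likelihood test over all 36323 genes and a threshold of 0.05 on the adjusted p, 88 of the 100 genes were called higher in Ga-L than in NM, where 8.78% of all genes tested were called higher. Against Ri it was 72, with 2.70% of all genes, and against Ga-H it was 27, with 0.465%. Median log2 fold changes of the 100 were 0.87, 0.92 and 0.81 in these comparisons, against 0.01, -0.03 and -0.01 over all genes tested. The 3 comparisons share the Ga-L libraries, and the choice of genes used the same differences, so nothing is read from these shares.

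The comparison of the 2 colonization levels of Glomus aggregatum rested on the fewest calls and depended most on single libraries. Of the 100, 27 passed with all 12 libraries, 84 passed without Ri 1, and 8 passed without Ga-H 3. None passed without NM 3, Ga-H 1, Ga-H 2, Ga-L 2 or Ga-L 3. In each of those fits 97 to 100 had an unadjusted p under 0.05. The DESeq2 Wald test called 86 and a fit of Ga-L and Ga-H alone called 89. The count against Ri rose to 92 without Ri 1. It fell to 34 without Ri 2, 16 without Ri 3, 18 without Ga-L 2 and 31 without Ga-L 3. In a fit of Ga-L and Ri alone it was 0, where 99 had an unadjusted p under 0.05. DESeq2 on all libraries called 92. The count against NM fell to 44 without NM 2 and 45 without Ga-L 2. The choice of genes favours a small unadjusted p, so nothing is read from the counts of unadjusted p. Shares of all genes called are not given for these alternative fits. A change in these counts therefore cannot be told apart from a change in the calls over all genes.

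Genes called higher in Ga-L than in each of the other groups numbered 43 of 36323, or 0.118%, and 25 of the 100 were among them. For context, every Ga-L library was above the other 9 in 765 of 26366 genes at the FPKM floor in each Ga-L library, or 2.90%, a condition that all 100 meet by selection.

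Between the other groups few of the 100 passed. Ri and NM differed in 3 of them (13.1% of all genes, either direction). Glyma.20G136300.Wm82.a2.v1 fell by 0.50 ± 0.14 and Glyma.16G088700.Wm82.a2.v1 fell by 0.57 ± 0.17 on the log2 scale in Ri, while Glyma.13G163500.Wm82.a2.v1 rose by 0.49 ± 0.14, with edgeR adjusted p of 0.0427, 0.0495 and 0.0353. The last of these measured 17.31, 16.43 and 17.13 FPKM in NM, 24.4, 24.24 and 21.09 in Ri, 18.86, 22.48 and 16.26 in Ga-H, and 27.99, 32.6 and 28.06 in Ga-L, so Ri lay between NM and Ga-L without overlap with either. Ga-H and NM differed in 1 of the 100 (8.12% of all genes), Glyma.05G196700.Wm82.a2.v1, which rose by 0.51 ± 0.13 in Ga-H (edgeR adjusted p = 0.0381) from 5.89, 4.82 and 6.02 FPKM in NM to 7.1, 8.89 and 8.34. No gene of the 100 passed between Ri and Ga-H by edgeR, DESeq2 or limma (0.0165% of all genes by edgeR), and 10 had an unadjusted edgeR p under 0.05. The window on group means limits all these differences. These 4 genes do not keep to the wording that Ga-L alone was raised or that the other fungal groups equalled NM. Genes that were not called can depart from it as well. In Glyma.15G112900.Wm82.a2.v1 each Ga-H library, at 20.29 to 22.94 FPKM, was above each NM library, at 13.9 to 17.78.

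Without Ri 1 a larger share was called between Ri and NM and between Ri and Ga-H, of the 100 and of all genes tested. Ri and NM then differed in 23 of the 100, 22 of them lower in Ri (27.9% of all genes were called in that fit), and Ri and Ga-H differed in 14, all lower in Ri (6.24% of all genes). The median log2 fold change of the 100 between Ri and NM moved from -0.07 to -0.21. Shares of all genes by direction are not given. The choice had held the Ri mean near NM with Ri 1 included. Ri 1 was the highest Ri library in 77 of the 100, so leaving it out lowers the Ri mean in those.

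The order of the libraries within groups was uneven in these genes. Ri 1 was the highest of the Ri libraries in 77 of the 100 genes, against 29.6% of the 19535 genes that met the floor and the window, and NM 2 was the lowest NM library in 72, against 37.3%. Across those 19535 genes Ri 1 was by contrast the lowest Ri library in 50.8%. In 19 of the 100 Ri 1 was at least 1.5 times both other Ri libraries, against 4.47%, and Ri 1 was the highest of all 9 other libraries in 24. That count was little above the 21 of NM 1, with 17 for Ga-H 2 and 15 for NM 3. With Ri 1 left out of the choice, Ri 1 was the highest Ri library in 84 of the 100 genes then chosen (27.2% of all genes that met the conditions), and with NM 2 left out of it, NM 2 was the lowest in 68 (37.4%). On counts scaled by library total and TMM, with no library left out of the choice, the numbers were 81 and 71, beside 77 and 72 on FPKM. The choice without a library still took genes that were low in the remaining libraries of the group, which favours a high place for a left-out library. Some other left-out libraries were the highest of their group in more of the chosen genes than of all genes too: NM 1 in 65 (42.3%), NM 3 in 46 (20.8%) and Ga-H 2 in 58 (36.6%). NM 2, in contrast, was mostly the lowest. These comparisons were chosen after seeing the data. What set Ri 1 and NM 2 apart in these genes was not tested.

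Relative to the NM mean, the median of the 100 genes was 1.09, 0.87 and 1.02 in NM 1, 2 and 3, 1.14, 0.94 and 0.86 in Ri, 1.05, 1.06 and 1.02 in Ga-H, and 1.73, 1.77 and 1.65 in Ga-L. The window on group means holds the Ri and Ga-H values near 1, and within it the Ri libraries were spread more widely than those of Ga-H. The summed FPKM of the 100 was 3737, 2524 and 3712 in NM, 3251, 2884 and 3014 in Ri, 3357, 3619 and 3452 in Ga-H, and 6116, 7376 and 6952 in Ga-L, a sum in which the abundant genes weigh most.

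**Figure D3:**
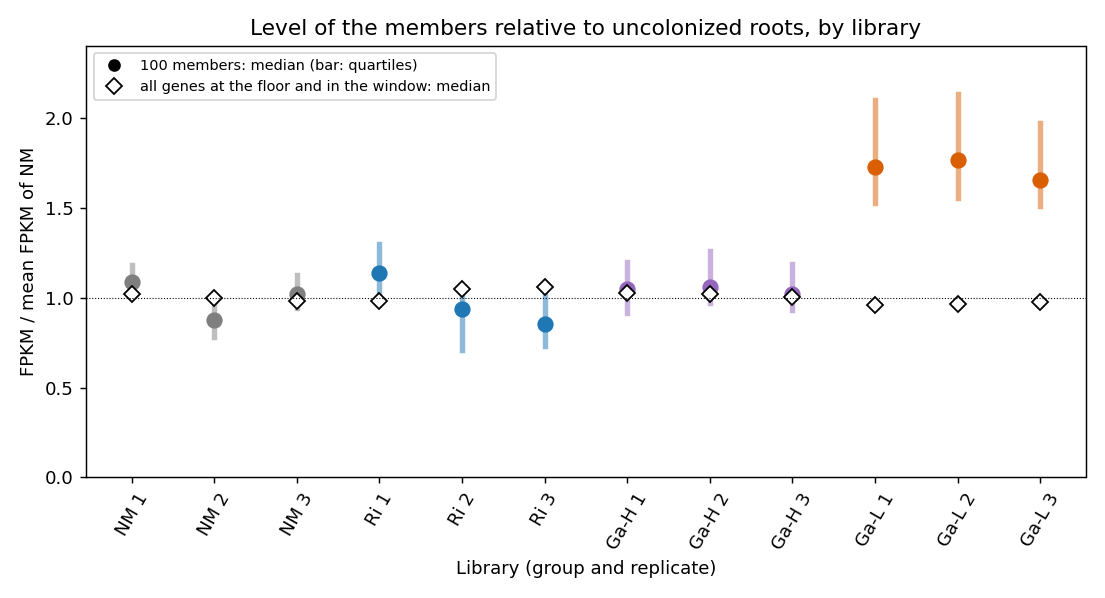
FPKM of the 100 genes divided by each gene's NM mean, by library. Filled points are medians with bars over the quartiles, and open diamonds are medians of all 19535 genes that met the floor and the window, which stay between 0.96 and 1.06. The filled points of Ga-L lie between 1.65 and 1.77, and those of Ri 1 and NM 2 part from their groups.

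Leaving a Ga-L library out of the choice gives values in that library which the choice did not use. With Ga-L 1 left out, 61 of the 100 genes then chosen had Ga-L 1 above all 9 other libraries, against 6.97% of all genes that met the conditions. With Ga-L 2 left out it was 90, against 10.8%, and with Ga-L 3 left out it was 92, against 10.5%. The median of the left-out FPKM over the highest of the other 9 was 1.08, 1.33 and 1.27. The 9 other libraries had still been chosen to be low in these genes, so part of each share is set by selection. Of the original 100 genes, 43, 80 and 71 were found again, and Ga-L 1 was the lowest Ga-L library in 83 of the genes chosen without it.

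The same leave-out was made for genes chosen as raised in Ri alone or in Ga-H alone. With Ri raised, the left-out library was above the other 9 in 25, 57 and 73 genes of 100 for Ri 1, 2 and 3, against 7.90%, 27.8% and 25.5% of all genes that met the conditions. With Ga-H raised it was 54, 51 and 40, against 11.9%, 7.98% and 6.76%. The order of the ratios depended on the rank. At rank 1 the ratio was 2.53 for Ri and 2.68 for Ga-H, against 2.52 for Ga-L, at rank 10 it was 1.45, 1.14 and 1.37, and at rank 100 it was 1.06, 1.01 and 1.12. In addition, 254 and 116 genes had a ratio over 1, against 345. The mirrored choice of genes lowered in Ga-L alone reached a ratio of 1.247 at rank 100, with 1240 genes over 1. At rank 1 the order was the other way round, with 1.65 for genes lowered in Ga-L. No test was made of these differences.

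**Figure D4:**
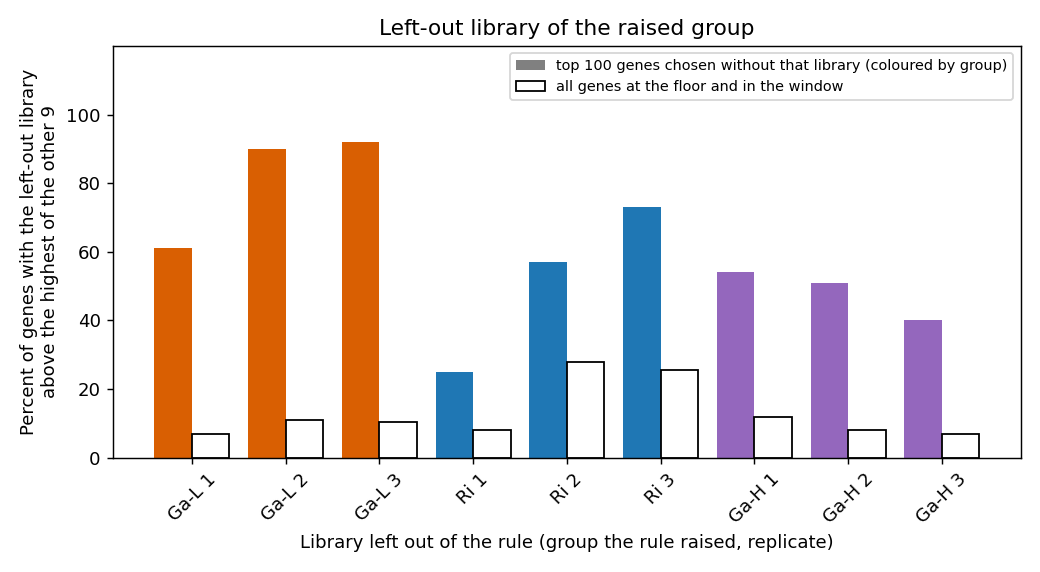
Percent of genes in which a library left out of the choice lay above the highest of the 9 libraries of the other groups. Filled bars are the 100 genes chosen without that library and open bars all genes that met the floor and the window. The genes of the filled bars were chosen to be low in those 9 libraries, so part of the gap is set by selection. Filled bars reach 61 to 92 for Ga-L, 25 to 73 for Ri and 40 to 54 for Ga-H.

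The libraries of the other groups were left out in turn as well. The left-out library lay below the lowest Ga-L library in 84 of the genes chosen without Ri 1, against 26.1% of all genes that met the conditions, and in 89 without NM 1, against 18.8%. Without each of the other 7 it was 94 to 100, against 16.8% to 33.4%. The genes had still been chosen to be high in Ga-L and low in the remaining libraries. Part of each share is therefore set by selection, and all genes that met the conditions were not so chosen. The original genes found again numbered 69 without NM 1, 72 without Ri 1 and 75 to 93 without each of the others.

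The 100 genes were spread over all 20 chromosomes, with 2 to 10 on each and 1 on an unplaced scaffold. Chromosome 20 held 10, or 10% of the list, against 4.57% of the 19535 genes. Some neighbours of the genes in ID order shared their separation. Of 109 neighbours within 1 gene number that reached the FPKM floor, 11, or 10.1%, had every Ga-L library above the other 9, and of 207 within 2 gene numbers it was 20, or 9.66%. Leaving out neighbours that belong to the 100 themselves, it was 9 of 107 (8.41%) and 16 of 203 (7.88%), against 2.90% of all genes at the floor. With neighbours that belong to the 100 counted as well, 19 of the 100 had a neighbour with this separation within 2 gene numbers. Expected counts divide reads that match several genes, so the separate values of neighbours that are close copies are uncertain. Which neighbours are copies could not be looked up.

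The abundant gene Glyma.16G060800.Wm82.a2.v1 lay in a run of 3 consecutive IDs that were all higher in Ga-L. Its neighbour Glyma.16G060700.Wm82.a2.v1 measured 249.6, 152.1 and 244.1 FPKM in NM, 110.8, 120.8 and 90.57 in Ri, 95.93, 108.1 and 148.9 in Ga-H, and 356.1, 368.4 and 365.8 in Ga-L. On the other side, Glyma.16G060900.Wm82.a2.v1 measured 109.1, 78.96 and 103.9 FPKM in NM, 72.88, 55.08 and 52.66 in Ri, 54.22, 55.32 and 95.74 in Ga-H, and 219.9, 188.1 and 157.6 in Ga-L. Both flanking genes fell outside the 100 only because their Ri or Ga-H means were too far below NM, at 0.50 and 0.55 times NM in the former and 0.62 times in Ri in the latter. Along the run, mean Ga-L FPKM was 363.4, 519 and 188.5 against 215.3, 249.5 and 97.3 in NM. Log2 fold changes of Ga-L over Ri were 1.83 ± 0.22, 1.43 ± 0.23 and 1.71 ± 0.25, and those over Ga-H were 1.70 ± 0.22, 1.48 ± 0.23 and 1.54 ± 0.25. The 3 transcripts have lengths of 936, 940 and 943 bases. The next listed genes at either end of the run, Glyma.16G060600.Wm82.a2.v1 and Glyma.16G061200.Wm82.a2.v1, were at 1.14 FPKM or less in each library.

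On chromosome 20, 4 of the 100 genes lay within 24 gene numbers. Glyma.20G136200.Wm82.a2.v1 measured 26.46, 19.13 and 22.14 FPKM in NM, 31.99, 24.36 and 24.94 in Ri, 28.38, 25.91 and 28.27 in Ga-H, and 45.84, 45.56 and 38.63 in Ga-L. Its neighbour Glyma.20G136300.Wm82.a2.v1 measured 23.45, 17.53 and 18.94 FPKM in NM, 16.02, 11.44 and 15.49 in Ri, 16.03, 15.83 and 17.54 in Ga-H, and 30.17, 32.24 and 28.88 in Ga-L. Both were higher in Ga-L than in each other group and parted in the other fungal groups, where means were above NM in the former and below NM in the latter. Glyma.20G138400.Wm82.a2.v1, 2 gene numbers before Glyma.20G138600.Wm82.a2.v1, measured 5.96, 4.45 and 7.57 FPKM in NM, 6.13, 4.81 and 4.41 in Ri, 3.61, 5.47 and 3.77 in Ga-H, and 10.29, 10.78 and 10.45 in Ga-L. Without NM 2 or Ga-L 2 the calls against NM were lost for Glyma.20G136300.Wm82.a2.v1 and Glyma.20G138400.Wm82.a2.v1, and for the latter also without NM 1 or Ga-L 3. The last 2 genes had like lengths, 2271 and 2175 bases, and like levels.

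The stretch as a whole did not move together. It held 12 tested genes, and of the 8 outside the 100, 4 had a positive log2 fold change of Ga-L over NM and 4 a negative one. The tested genes on either side of the last 2 selected ones had higher means in Ga-L as well. Against NM, Ri and Ga-H, Glyma.20G138100.Wm82.a2.v1 differed by 0.32 ± 0.19 (SE), 0.90 ± 0.19 and 1.12 ± 0.19. Just past the stretch, Glyma.20G138700.Wm82.a2.v1 differed by 0.54 ± 0.22, 0.86 ± 0.22 and 0.85 ± 0.22. In neither gene was every Ga-L library above the other 9. Among the 8, Glyma.20G137400.Wm82.a2.v1 had every Ga-L library above the other 9, but by another pattern: its mean FPKM was 9.40 ± 1.35 (SD, n = 3) in Ga-L and already 7.08 ± 0.32 in Ga-H and 2.84 ± 0.41 in Ri, from 0.173 ± 0.040 in NM. Just past the stretch, Glyma.20G138900.Wm82.a2.v1 ran likewise from 0.553 ± 0.215 in NM through 5.06 ± 2.04 in Ri and 8.32 ± 0.67 in Ga-H to 12.7 ± 1.97 in Ga-L. The means of both were above NM in every fungal group, by more than the window allows.

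**Figure D5:**
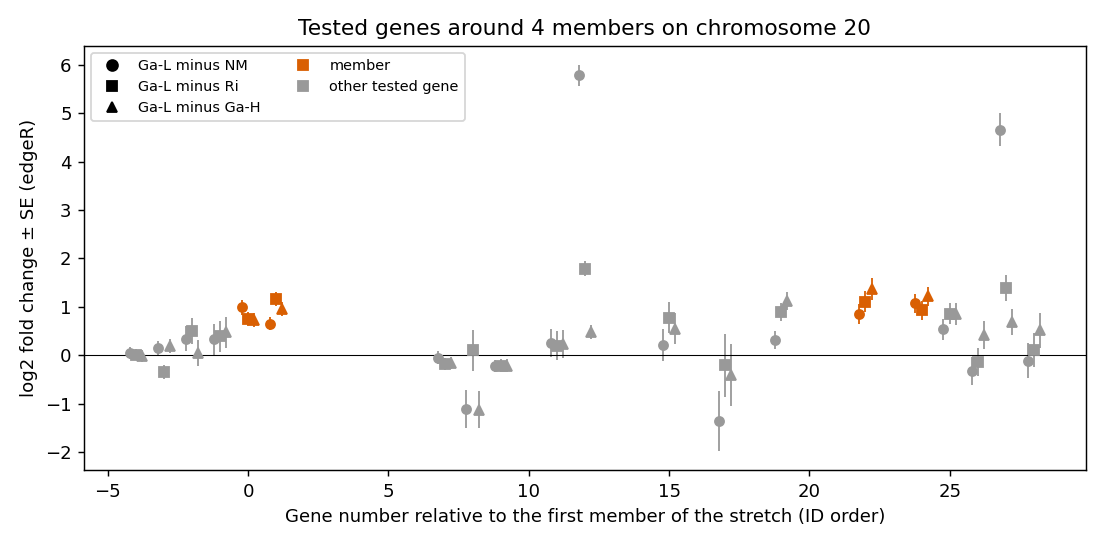
Log2 fold changes of Ga-L with their standard errors for tested genes around the stretch on chromosome 20, by gene number from the first of the 4 selected genes. Circles are Ga-L minus NM, squares Ga-L minus Ri and triangles Ga-L minus Ga-H. The 4 selected genes lie between 0.65 and 1.37 in all 3 comparisons, and the circles near 5.8 and 4.7 are the pair of genes with means above NM in every fungal group.

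The remaining near neighbours among the 100 were less alike. Glyma.02G050800.Wm82.a2.v1 and Glyma.02G051400.Wm82.a2.v1 lay 6 gene numbers apart. The former, of 484 bases, measured 4.18, 2.17 and 3.44 FPKM in NM, 2.69, 2.51 and 2.24 in Ri, 4.5, 4.29 and 3.53 in Ga-H, and 6.32, 8.31 and 7.83 in Ga-L. The latter, of 2406 bases, measured 6.45, 4.8 and 5.12 FPKM in NM, 6.02, 2.92 and 3.79 in Ri, 5.62, 5.69 and 4.38 in Ga-H, and 9.81, 11.12 and 9.68 in Ga-L. Both were above NM and Ri by the edgeR threshold, with adjusted p of 0.0983 and 0.0583 against Ga-H. The call against NM was lost without Ga-L 2 in both (0.0537 and 0.0798), and in the latter also without NM 2 (0.0897) or NM 3 (0.0681). On chromosome 5, Glyma.05G196300.Wm82.a2.v1 lay 4 gene numbers before Glyma.05G196700.Wm82.a2.v1. It measured 25.94, 23.92 and 21.94 FPKM in NM, 23.59, 16.55 and 19.48 in Ri, 24.48, 24.37 and 19.34 in Ga-H, and 51.49, 36.44 and 40.74 in Ga-L, and passed all 3 comparisons, with edgeR adjusted p of 0.00387 against NM, 0.0071 against Ri and 0.0321 against Ga-H. Ga-L 1 was its highest library, as it was for its neighbour.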

How the data were processed

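Root RNA of 12 samples was profiled, 3 in each of 4 groups. Each library's deposited table gives the authors' expected count, FPKM and length per gene, per the file headers, and leaves out genes at 0. Bowtie2, HISAT and RSEM are named by the submitters' processing notes, while their versions and the strand setting are not given. Expected counts divide reads that match several genes, so close copies are uncertain. FPKM are scaled to library size and length but not by TMM.

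The 100 genes and the lists were chosen with earlier results of these data known. Deposited expected counts were rounded and tested with edgeR 4.0.16 in R 4.3.3: default low-count filter (36323 genes), TMM, robust quasi-likelihood test over all 12 libraries, 1 mean per group, 8 residual degrees of freedom, Benjamini-Hochberg adjustment and a threshold of 0.05. The biological coefficient of variation was 22.4%. Standard errors were derived from F statistics. On simulated data for Ga-L against NM over those 36323 genes, the fit recovered 34% of 2-fold and 79% of 4-fold changes. Far fewer genes were changed in the simulation than were called in the data. Alternatives were RLE factors, library totals, no filter, DESeq2 1.42.0, limma 3.58.1 on log2(FPKM + 1) or log2(FPKM + 0.1), a replicate block, the compared groups alone, and each library left out. The rule was also run with other floors, windows, pseudocounts and units.

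Named genes are the 12 with the highest ratio, the 5 with the highest Ga-L mean, the 3 steadiest and the 3 most variable in Ga-L, those within 10 gene numbers of another, and 2 on each side of rank 100. Genes named beyond that (flanking genes, those called between other groups and those of the closing section) were chosen after their values were seen. Gene lists and promoter motifs that had been planned could not be matched to the IDs and were not counted. No pair of libraries held equal values: at most 11.3% of genes had equal counts in a pair.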

Additional observations from a re-analysis of the deposited data

How the results depend on the processing

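The number of the 100 genes called depended on the setting as follows. No shares of all genes called stand beside these counts here. A change in a count therefore cannot be told apart from a change in the calls over all genes. For Ga-L above NM (88), leaving out 1 library gave 44 to 94. For Ga-L above Ri (72), it gave 16 to 92, and the 2 groups alone gave 0. For Ga-L above Ga-H (27), it gave 0 to 84, DESeq2 gave 86 and the 2 groups alone 89. For Ri against NM (3), leaving out 1 library gave 0 to 23, library totals gave 1, limma gave 1 on log2(FPKM + 1), on log2(FPKM + 0.1) and without its filter, and the 2 groups alone gave 0. For Ga-H against NM (1), leaving out 1 library gave 0 to 1, and limma without its filter and the 2 groups alone gave 0. For Ri against Ga-H (0), leaving out 1 library gave 0 to 14, with 14 only without Ri 1. The cause was not tested. With the replicate number as a block, the count was 84 for Ga-L above NM, 61 above Ri, 0 above Ga-H (with 100 at an unadjusted p under 0.05), 2 for Ri against NM and 0 for Ga-H against NM. Whether the numbers pair the samples is not settled. Deviations of same-numbered libraries correlated between -0.40 and 0.23, and 6 of 18 pairs exceeded 0.1. They ran from -0.40 to 0.08 in pairs with NM and from -0.03 to 0.23 between fungal groups. In all other groups at once, 0 libraries were closest to their own number. A batch shared by some groups was not tested. Of the 100 genes, 57 were chosen again with a window from 0.8 times NM up to its reciprocal, 42 when ranked by the ratio of means, 72 with a window of 0.5 to 2, 93 and 88 with floors of 1 and 5 FPKM, 83 with a pseudocount of 1, 91 on TMM-scaled counts in place of FPKM, and 43 to 93 without 1 library. For the 23 named genes, no fold change over NM reversed under any of these settings: of 483 combinations of gene and setting, 52 lost the call, 43 of them by leaving out a library, and 4 gained it, all in Glyma.06G069000.Wm82.a2.v1. In FPKM, every Ga-L library of these genes is above every NM library by selection. A reversal was therefore hardly possible, and nothing is read from its absence. With 3 libraries a group, the self-test for Ga-L against NM found 34% of 2-fold changes, so a gene that was not called is not shown to be level. That simulation changed far fewer genes than were called in the data, drawn from all genes tested. Its share need not hold for these 100.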

Other observations

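A further 18 genes were called higher in Ga-L than in each of the other groups by edgeR but are not among the 100. In 9 of them a mean of Ri or Ga-H lay below 0.67 times NM, in 7 it lay above 1.5 times NM, and 2 were in the window below rank 100. Among those below, Glyma.15G142000.Wm82.a2.v1 had a mean FPKM of 65.4 in Ga-L against 29.2 in NM, 16.2 in Ri and 16.5 in Ga-H, and Glyma.02G237300.Wm82.a2.v1 had 28.6 against 13.8, 9.58 and 7.63. In these genes low colonization went with a level above uncolonized roots and the other fungal groups with a level below. Among those above, Glyma.10G087500.Wm82.a2.v1 had a mean FPKM of 60.3 in Ga-L against 11.02 in NM, 24.97 in Ri and 32.03 in Ga-H, and Glyma.11G071100.Wm82.a2.v1 had 49.6 against 10.2, 29.98 and 29.1. The 2 in the window were Glyma.08G146200.Wm82.a2.v1, with 23.1 in Ga-L against 11.97, 14.6 and 13.1, and Glyma.18G136200.Wm82.a2.v1, with 17.1 against 13, 11.1 and 10.6.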
